A study of Mus musculus with 6 samples.

Results

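The 10 genes of the creatine phosphate and adenylate energy buffer (*Ckm*, *Ckb*, *Ckmt1*, *Ckmt2*, *Gamt*, *Gatm*, *Slc6a8*, *Ampd1*, *Ampd3* and *Ak1*) were examined in leg muscle of fetal mice that lacked *SYISL*, a long noncoding RNA encoded within the gene *Synpo2*. They were chosen by name, with earlier results of these data known. They are the creatine kinases, the enzymes and transporter that supply creatine, and muscle enzymes that interconvert adenylates. All 10 were found by Ensembl identifier among the 56262 genes of the count table. The 6 RNA-seq libraries held whole leg muscle from wild-type (WT) fetuses and from *SYISL* knockout (KO) fetuses at embryonic day 18.5 (E18.5), 3 per genotype, with no other allele or treatment named. Parents shared the genotype of their fetuses, so the genotype of the fetus cannot be told apart from that of the mother or from the litter. The WT mice came from a university animal center and the KO line from earlier work of the same group. The sources used here did not state how many fetuses or litters entered a library, so the p-values measure the spread between these libraries, which may be technical. *SYISL* has no row under its own name, and its loss was not checked here. In bulk muscle, fewer cells of a type and less RNA per cell cannot be told apart.

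Muscle spends ATP faster than mitochondria can return it at the onset of work. Creatine kinases bridge the gap by moving phosphate between phosphocreatine and ADP, with cytosolic forms at the myofibrils and mitochondrial forms at the site where ATP leaves the organelle. Adenylate kinase draws a further ATP from a pair of ADP molecules and leaves AMP, which AMP deaminase turns into IMP. As fetal muscle matures, the brain-type cytosolic creatine kinase gives way to the muscle type.

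The libraries held 82054811 to 102233181 counts each. Muscle fibre markers were present in every library, as the tissue label says. The 13 genes of that list, among them *Acta1*, *Ttn* and *Myh8*, summed to 20650 to 22858 CPM (counts scaled to library size) in WT and 42677 to 51533 CPM in KO, and 11 of the 13 were called higher in KO. Markers of other cells differed too. The 10 keratinocyte genes, all called lower, summed to 16700 to 25025 CPM in WT, highest in WT replicate 2, and to 892 to 1008 CPM in KO. The red blood cell genes, 8 of 9 called lower, summed to 3949 to 5192 CPM in WT and 548 to 669 CPM in KO. All 8 white fat genes were called higher, from 227 to 283 CPM in WT to 795 to 954 CPM in KO. No marker of these 4 lists was at 0 in any library. WT replicate 3, KO replicate 2 and KO replicate 3 held both *Xist* and Y-linked reads, WT replicate 2 and KO replicate 1 held *Xist* with almost no Y-linked reads, and WT replicate 1 held Y-linked reads and 140 *Xist* counts. The part of these differences in the results on the 10 genes was not tested, beyond the values given beside them.

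The promoters of the 4 creatine kinase genes are shown because these kinases differed in direction between WT and KO, as described below, and each has a window in RefSeq (GRCm38.p6, 250 bases before to 50 bases after a transcript start). Capitals mark E-boxes, the CANNTG motif bound by MyoD and its relatives.
*Ckm*, chr7:19410844-19411143, plus strand: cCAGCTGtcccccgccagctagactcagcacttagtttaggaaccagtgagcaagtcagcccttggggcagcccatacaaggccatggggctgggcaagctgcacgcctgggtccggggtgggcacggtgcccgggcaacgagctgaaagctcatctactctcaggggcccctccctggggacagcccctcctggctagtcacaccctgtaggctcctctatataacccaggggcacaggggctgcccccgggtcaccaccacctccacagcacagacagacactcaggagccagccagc
*Ckb*, chr12:111672289-111672588, minus strand: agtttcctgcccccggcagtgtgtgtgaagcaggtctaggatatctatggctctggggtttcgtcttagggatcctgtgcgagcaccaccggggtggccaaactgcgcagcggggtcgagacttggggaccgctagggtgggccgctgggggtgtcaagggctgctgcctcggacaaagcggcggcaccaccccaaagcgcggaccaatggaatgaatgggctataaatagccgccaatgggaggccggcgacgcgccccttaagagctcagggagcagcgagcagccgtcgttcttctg
*Ckmt1*, first of 2 windows, chr2:121357526-121357825, plus strand: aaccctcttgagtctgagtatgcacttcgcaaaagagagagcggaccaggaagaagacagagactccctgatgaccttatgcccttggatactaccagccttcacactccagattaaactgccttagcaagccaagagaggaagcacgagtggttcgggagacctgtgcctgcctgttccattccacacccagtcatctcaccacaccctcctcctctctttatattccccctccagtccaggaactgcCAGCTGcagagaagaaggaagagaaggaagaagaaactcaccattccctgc
*Ckmt2*, chr13:91876836-91877135, minus strand: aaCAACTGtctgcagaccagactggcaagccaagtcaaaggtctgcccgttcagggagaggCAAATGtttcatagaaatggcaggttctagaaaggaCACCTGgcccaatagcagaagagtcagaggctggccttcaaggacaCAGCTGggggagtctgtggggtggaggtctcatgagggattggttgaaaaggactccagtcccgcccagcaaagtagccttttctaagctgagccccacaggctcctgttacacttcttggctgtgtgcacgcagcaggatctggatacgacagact

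Counting positions from the transcript start, with no position 0, the *Ckm* window held 1 E-box, at -249, with the letters CAGCTG. The well-known muscle enhancer of *Ckm* lies farther upstream and is not in the printed stretch, and the window belongs to a start inside the longer gene span given below. *Ckmt2* held 4 E-boxes, at -248, -189, -153 and -107, the last of them CAGCTG. *Ckb* held none, but it had a site for MEF2, a factor of muscle and nerve, at -29 that overlapped a TATA box (TATAAA) at -28, and an MCAT motif (CATTCC, bound by TEAD factors) at -41. The first *Ckmt1* window had 1 CAGCTG E-box across the start, at -1, and a TATA box at -31. It also had MCAT motifs at -71 and 41 and a core motif of the estrogen-related receptors (AAGGTCA) at -179. The second *Ckmt1* window, not printed, held none of these motifs. All the motifs named are letter matches on either strand, not measured binding sites. Such matches are common: of 32851 RefSeq windows, 72.3% held an E-box, 16.3% CAGCTG, 14.7% MCAT, 13.6% the TATA box, 4.72% the receptor motif and 3.19% a MEF2 site. RefSeq windows were found for 8 of the 10 genes, 14 windows in all, and 11 of the 14 (78.6%) held an E-box, close to the share of all windows. The genes *Ampd1* and *Slc6a8* had none.

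Of the 10 genes, 5 were called higher in KO (*Ckm*, *Ckmt2*, *Gatm*, *Ampd1* and *Ak1*), 2 were called lower (*Ckmt1* and *Ampd3*) and 3 were not called (*Ckb*, *Gamt* and *Slc6a8*). A call needed more than a 1.5-fold change and a p under 0.05 after Benjamini-Hochberg adjustment over 22071 genes in the quasi-likelihood test of edgeR, which gave every adjusted p and log2 fold change (log2FC, KO over WT, with its standard error, SE) below. Among all genes tested, 8.31% were called higher and 8.39% lower, 16.7% in all. By adjusted p alone, 6 of the 10 were higher and 3 lower, against 21.9% and 23.1% of all genes, 45% in all. WT and KO values did not overlap in 9 of the 10, with KO above in 6 and below in 3, against 27.3% and 28.5% of all genes, 55.9% in all. The median log2 fold change was 0.61, against -0.0041 over all genes. Since the 10 genes were chosen with earlier results of these data known, these comparisons with all genes are only a description. The genes called higher were 4 enzymes best known from muscle and the first enzyme of creatine synthesis, and those called lower were enzymes best known from other tissues.

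**Figure D1:**
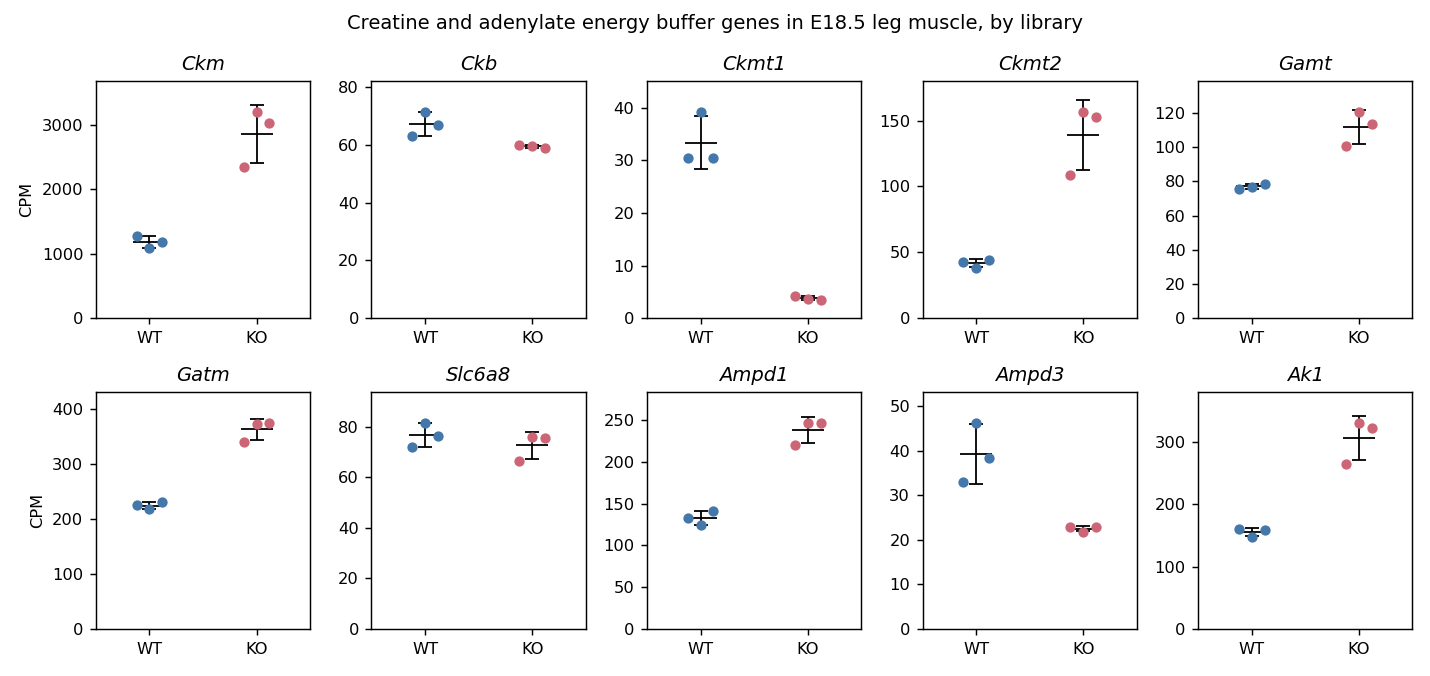
Level of each of the 10 genes in CPM (y axis, from 0, own scale per gene) in 3 WT (blue) and 3 KO (red) libraries. Points are libraries, the long line is the mean and the bars are the SD. The groups overlap for *Slc6a8* and for no other gene. KO replicate 1, the leftmost red point, is the lowest KO point for *Ckm*, *Ckmt2*, *Gamt*, *Gatm*, *Slc6a8*, *Ampd1* and *Ak1*.

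*Ckm* (ENSMUSG00000030399.2, chromosome 7, 19404776 to 19422841, mm10, plus strand) encodes the muscle creatine kinase, bound in part to the M-line of the sarcomere. The WT libraries held 120626, 89859 and 124854 counts of *Ckm*, and the KO libraries 219124, 304626 and 294542. Scaled to library size, this made 1274, 1087 and 1183 CPM in WT and 2338, 3196 and 3028 CPM in KO. All KO libraries lay above all WT libraries, and the lowest of them was KO replicate 1. The mean rose from 1182 ± 93.4 to 2854 ± 455 CPM (SD, n = 3 each), 2.42-fold, and the log2FC was 1.27 (SE 0.12, edgeR adjusted p = 1.98e-05). *Ckm* alone took 0.110% to 0.131% of all counts in WT and 0.234% to 0.308% in KO. Of its exon bases, 15.5% overlap the antisense gene *A930016O22Rik*, and the strand setting of the counting is not stated. That gene had 395 to 559 counts in WT and 875 to 1032 in KO, far fewer than *Ckm*. Its log2FC was 0.91 (edgeR adjusted p = 3.83e-05). These counts do not show how many *Ckm* reads lay in the overlap or how they were assigned.

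*Ckb* (ENSMUSG00000001270.9, chromosome 12, 111669361 to 111672338, minus strand), the brain-type cytosolic creatine kinase, was not called. WT libraries held 63.1, 71.3 and 67.0 CPM and KO libraries 59.8, 59.6 and 58.7 CPM, so every KO value lay below every WT value by a small margin. The means were 67.1 ± 4.11 and 59.4 ± 0.588 CPM (SD, n = 3 each), and the log2FC was -0.18 (SE 0.047, edgeR adjusted p = 0.0132). The size of this difference was under the 1.5-fold threshold, and its adjusted p was 0.0577 without KO replicate 3 and 0.0701 with upper-quartile factors. The 2 cytosolic kinases thus differed in the size and sign of their change, and *Ckb* showed no fall comparable with the gain of *Ckm*.

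*Ckmt2* (ENSMUSG00000021622.3, chromosome 13, 91853387 to 91876885, minus strand) encodes the sarcomeric mitochondrial creatine kinase of heart and skeletal muscle. Its levels were 42.9, 38.2 and 44.2 CPM in WT and 109, 157 and 152 CPM in KO, with a wide gap between the groups. The mean rose 3.33-fold, from 41.7 ± 3.13 to 139 ± 26.5 CPM (SD, n = 3 each), and the log2FC was 1.74 (SE 0.13, edgeR adjusted p = 4.40e-06). Among the 10 genes this was the greatest rise, and it lay at the 99.0th percentile of all log2 fold changes.

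*Ckmt1* (ENSMUSG00000000308.14, chromosome 2, 121357714 to 121363737, plus strand) encodes the ubiquitous mitochondrial creatine kinase, found in brain and in epithelia. It fell from 2881, 3240 and 3217 counts in WT to 396, 343 and 340 counts in KO. In CPM it was 30.4, 39.2 and 30.5 in WT and 4.22, 3.60 and 3.50 in KO, with WT replicate 2 highest. The mean fell from 33.4 ± 5.05 to 3.77 ± 0.395 CPM (SD, n = 3 each), an 8.84-fold difference, and the log2FC was -3.14 (SE 0.12, edgeR adjusted p = 1.13e-07). Leaving out any 1 library kept the log2 fold change between -3.23 and -3.01. Beside this fall, the 10 keratinocyte markers had a median log2 fold change of -4.89, and their sum was also highest in WT replicate 2 (25025 CPM, against 16700 and 18654 CPM in the other WT libraries). The red blood cell markers had a median of -2.91. The part of either cell type in the *Ckmt1* result was not tested.

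**Figure D2:**
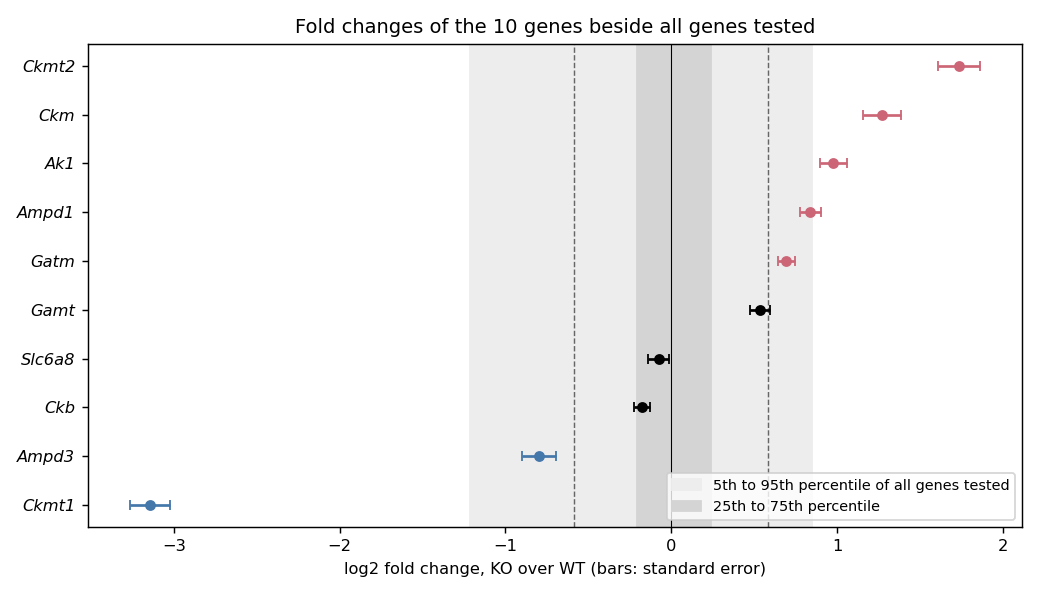
Log2 fold change of KO over WT (x axis) for the 10 genes, with the standard error as bars. Red marks genes called higher, blue genes called lower and black genes not called, dashed lines mark a 1.5-fold change, and grey bands span percentiles 5 to 95 and 25 to 75 of all 22071 genes tested. *Ckmt2*, *Ckm* and *Ak1* (1.74, 1.27 and 0.98) and *Ckmt1* (-3.14) lie outside the wider band, and *Ckb* and *Slc6a8* lie within the narrow one.

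Scaled by exon length, the forms can be set beside each other within a library. Levels per kilobase of exon (RPKM, the CPM divided by exon length) were 406 ± 32.1 for *Ckm*, 28.1 ± 2.11 for *Ckmt2*, 23.2 ± 1.42 for *Ckb* and 13.4 ± 2.02 for *Ckmt1* in WT (SD, n = 3 each). In KO they were 980 ± 156 for *Ckm*, 93.7 ± 17.8 for *Ckmt2*, 20.5 ± 0.203 for *Ckb* and 1.51 ± 0.158 for *Ckmt1*. The summed RPKM of the 4 kinases was 470 ± 30.5 in WT and 1095 ± 174 in KO, and most of the difference was *Ckm*.

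*Ckm* made up 87.4%, 85.0% and 86.2% of the summed kinase RPKM in the WT libraries and 89.4%, 89.6% and 89.3% in the KO libraries. The share of *Ckmt2* was 5.97% ± 0.292 in WT and 8.52% ± 0.342 in KO, and that of *Ckb* was 4.96% ± 0.627 and 1.91% ± 0.341. *Ckmt1* went from 2.87% ± 0.617 to 0.142% ± 0.0401 (SD, n = 3 each). Thus, by length of all exons, *Ckm* was the leading form in both genotypes, followed by *Ckmt2*, *Ckb* and *Ckmt1* in that order. With coding length *Ckb* came before *Ckmt2* in WT. The *Ckm* share depended on the length used. With coding length it was 89.7% in WT and 93.7% in KO, and with the longest transcript 85.6% and 89.9%.

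The *Ckm* to *Ckb* RPKM ratio came to 20.1, 15.2 and 17.6 over the WT libraries and to 38.8, 53.3 and 51.2 over the KO libraries. For *Ckmt2* to *Ckmt1* it came to 2.37, 1.64 and 2.43, then 43.2, 73.0 and 73.3. With this length the muscle form was ahead in every library of both compartments, and no KO ratio overlapped a WT ratio. The mean *Ckmt2* to *Ckmt1* ratio was 2.15 ± 0.442 in WT and 63.2 ± 17.3 in KO (SD, n = 3 each). With coding length in place of all exons these means were 1.27 and 37.5, and in WT replicate 2 the ratio was 0.972, with *Ckmt1* ahead. The lead of *Ckmt2* in WT thus depended on the length used. On the log2 scale the *Ckm* to *Ckmt2* ratio was 3.85 ± 0.0756 in WT and 3.39 ± 0.0581 in KO, so the mitochondrial form gained on the cytosolic one.

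**Figure D3:**
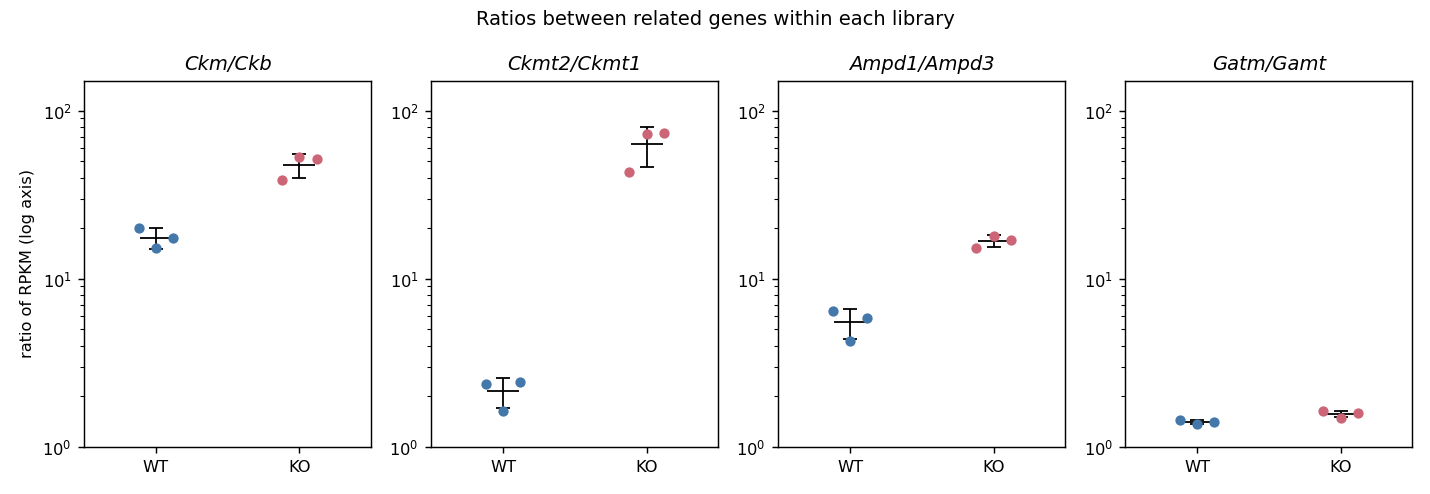
Ratio of the RPKM of related genes (y axis, log scale) in each library, for *Ckm* over *Ckb*, *Ckmt2* over *Ckmt1*, *Ampd1* over *Ampd3* and *Gatm* over *Gamt*. Points are WT (blue) and KO (red) libraries, long lines are means and bars are the SD. The *Ckmt2* over *Ckmt1* panel has the widest gap, from a mean of 2.15 to 63.2, and the *Gatm* over *Gamt* panel the narrowest, from 1.40 to 1.57.

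The coding sequences are alike enough to ask whether reads could move between the forms. *Ckm* and *Ckb* were 76.4% identical over the aligned bases, and their longest identical stretch was 20 bases. *Ckmt1* and *Ckmt2* were 72.7% identical, with a longest stretch of 39 bases. That stretch is shown because it was the longest among the pairs compared, at coding positions 892 to 930 of *Ckmt1*, and capitals mark the shared bases.
*Ckmt1* and *Ckmt2*, shared: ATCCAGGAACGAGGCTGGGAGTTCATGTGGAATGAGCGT
*Ampd1* and *Ampd3* were 67.2% identical, with at most 17 bases in a row. The study describes paired-end reads longer than any of these shared coding stretches. How the counting treated reads that map to more than 1 gene is not given in the sources used here.

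Creatine itself is made in 2 steps, and for both enzymes every KO value lay above every WT value. *Gatm* (ENSMUSG00000027199.14, chromosome 2, 122594467 to 122611303, minus strand) encodes the amidinotransferase that forms guanidinoacetate from arginine and glycine. It read 225, 218 and 231 CPM across the WT libraries and 341, 374 and 376 CPM across the KO libraries. The mean rose 1.62-fold, from 225 ± 6.73 to 364 ± 19.4 CPM (SD, n = 3 each), and the log2FC was 0.69 (SE 0.052, edgeR adjusted p = 5.38e-06).

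*Gamt* (ENSMUSG00000020150.13, chromosome 10, 80258151 to 80261012, minus strand), which methylates guanidinoacetate to creatine, read 75.4, 76.9 and 78.7 CPM across the WT libraries and 101, 121 and 114 CPM across the KO libraries. The groups did not overlap, and the WT libraries were within a few CPM of each other. The means were 77.0 ± 1.64 and 112 ± 10.1 CPM (SD, n = 3 each), 1.45-fold apart, and the log2FC was 0.54 (SE 0.061, edgeR adjusted p = 9.17e-05). *Gamt* was not called, since its fold change was just under 1.5. Without KO replicate 1, its lowest KO library, the log2 fold change was 0.61 and the gene was called. The ratio of *Gatm* to *Gamt* RPKM was 1.40 ± 0.0393 in WT and 1.57 ± 0.0715 in KO.

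*Slc6a8* (ENSMUSG00000019558.14, chromosome X, 73673150 to 73682502, plus strand), the creatine transporter by which muscle takes up most of its creatine, was not called. WT libraries held 72.1, 81.7 and 76.4 CPM, and KO libraries 66.5, 76.0 and 75.7 CPM. The groups overlapped, with means of 76.7 ± 4.83 and 72.8 ± 5.42 CPM (SD, n = 3 each), and the log2FC was -0.08 (SE 0.063, edgeR adjusted p = 0.360). The gene is X-linked and the libraries differed in Y-linked reads. With the Y-linked share of counts as a covariate the log2 fold change was -0.09 (edgeR adjusted p = 0.261).

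AMP deaminase removes AMP when ATP use outruns its renewal and opens the purine nucleotide cycle. *Ampd1* (ENSMUSG00000070385.12, chromosome 3, 103074014 to 103099720, plus strand), the skeletal muscle form, read 133, 124 and 141 CPM across the WT libraries and 220, 247 and 247 CPM across the KO libraries. The mean rose 1.79-fold, from 133 ± 8.79 to 238 ± 15.6 CPM (SD, n = 3 each), and the log2FC was 0.84 (SE 0.063, edgeR adjusted p = 5.51e-06).

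*Ampd3* (ENSMUSG00000005686.17, chromosome 7, 110768206 to 110812405, plus strand), best known as the form of red blood cells, went the other way. It read 33.0, 46.3 and 38.3 CPM across the WT libraries and 22.9, 21.8 and 22.9 CPM across the KO libraries. The WT libraries varied, with a coefficient of variation of 17.2% against 2.90% in KO, and WT replicate 2 was highest. The mean fell 1.74-fold, from 39.2 ± 6.72 to 22.5 ± 0.654 CPM (SD, n = 3 each), and the log2FC was -0.80 (SE 0.10, edgeR adjusted p = 2.15e-04). Leaving out any 1 library gave -0.91 to -0.66. WT replicate 2 was also highest in the summed red blood cell markers (5192 CPM, against 4411 and 3949 CPM) and in the keratinocyte markers. WT replicate 1, lowest in *Ampd3*, lay above WT replicate 3 in the red blood cell sum and below it in the keratinocyte sum. The part of those cells in the *Ampd3* result was not tested. Of the *Ampd3* exon bases, 8.42% overlap other genes, mainly *B430319F04Rik* and *Rnf141*, with log2 fold changes of -0.38 and 0.18. *B430319F04Rik* had 12 to 25 counts per library and *Rnf141* 2169 to 3047. These counts do not show how many *Ampd3* reads lay in the overlaps or how they were assigned.

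The *Ampd1* to *Ampd3* RPKM ratio came to 6.41, 4.24 and 5.86 over the WT libraries and to 15.2, 17.97 and 17.1 over the KO libraries. *Ampd1*, the muscle form, led in every library and by more in KO.

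*Ak1* (ENSMUSG00000026817.14, chromosome 2, 32621758 to 32635058, plus strand) encodes the cytosolic adenylate kinase of muscle. It read 160, 148 and 159 CPM across the WT libraries and 265, 331 and 322 CPM across the KO libraries. The mean rose 1.97-fold, from 155 ± 6.83 to 306 ± 35.7 CPM (SD, n = 3 each), and the log2FC was 0.98 (SE 0.080, edgeR adjusted p = 9.75e-06). *Ckm* outran it slightly, with a log2 ratio of *Ckm* to *Ak1* RPKM of 2.76 ± 0.0617 in WT and 3.05 ± 0.0676 in KO.

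By RPKM over all exons, *Ckm* was first in every library and *Gatm* was second in the group means. In WT, *Gatm* (74.9 ± 2.24) was followed by *Ak1* (59.9 ± 2.63), *Gamt* (53.3 ± 1.14), *Ampd1* (37.4 ± 2.48), *Ckmt2*, *Ckb*, *Slc6a8* (14.7 ± 0.928), *Ckmt1* and *Ampd3* (6.96 ± 1.19). *Slc6a8* and *Ckmt1* did not differ beyond their spread. In KO, *Gatm* (121 ± 6.46) and *Ak1* (118 ± 13.8) overlapped in their spread, and *Ckmt2* had moved up beside *Gamt* (77.3 ± 6.99) and *Ampd1* (67.1 ± 4.38). *Ckmt1* took the last place from *Ampd3* (4.01 ± 0.116). With coding length, *Ak1* came before *Gatm* in both genotypes, and in WT *Ckmt2* came after *Ckb* and *Slc6a8*.

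The wider pathway was covered by 35 further genes in 4 lists, also chosen with earlier results of these data known. In all, 34 were tested (*Ak9* was too low). Of these, 4 were called higher and 0 lower, against 8.31% and 8.39% of all genes, and their median log2 fold change was 0.10. By adjusted p alone 15 were higher and 7 lower, against 21.9% and 23.1% of all genes. The same 15 and 7 had an unadjusted p under 0.05, and DESeq2 and limma-voom also called 0 lower.

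Among the other adenylate kinases, edgeR, DESeq2 and limma-voom called 0 of the 7 tested. By adjusted or unadjusted p alone 2 were higher and 3 lower, and the list had a median log2 fold change of -0.26. Of all genes, 21.9% were higher and 23.1% lower by adjusted p alone.

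In the purine nucleotide cycle and AMP breakdown, 2 of 12 were called higher. By adjusted p alone 4 were higher and 4 lower, against 21.9% and 23.1% of all genes. *Adssl1*, the muscle adenylosuccinate synthase that returns IMP toward AMP, read 47.9, 45.5 and 49.5 CPM across the WT libraries and 91.9, 123 and 120 CPM across the KO libraries. It rose 2.34-fold, and the log2FC was 1.23 (SE 0.098, edgeR adjusted p = 8.27e-06). *Nt5c1a*, a cytosolic AMP nucleotidase, was scarce, with 13, 13 and 20 counts over the WT libraries against 35, 23 and 32 over the KO libraries. Its log2FC of 0.95 was called (SE 0.26, edgeR adjusted p = 0.0146), but not by DESeq2 or without WT replicate 1. *Ampd2*, the AMP deaminase of liver and other tissues, had means of 48.3 ± 3.09 CPM (WT) and 43.2 ± 1.27 CPM (KO, SD, n = 3 each), and its log2FC of -0.16 was not called.

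Of the 7 subunits of AMPK, the kinase that senses AMP, 1 was called. By adjusted p alone 4 were higher and 0 lower, against 21.9% and 23.1% of all genes. *Prkaa2*, a catalytic subunit prominent in muscle, read 31.9, 27.2 and 29.0 CPM across the WT libraries and 42.5, 52.7 and 54.2 CPM across the KO libraries. It rose 1.69-fold, and the log2FC was 0.76 (SE 0.092, edgeR adjusted p = 1.35e-04). Of the 8 genes that carry ATP, ADP and phosphate across the mitochondrial membranes, 1 was called. By adjusted p alone 5 of them were higher and 0 lower. *Slc25a4*, the adenine nucleotide translocase of muscle and heart, read 412, 364 and 377 CPM across the WT libraries and 635, 926 and 851 CPM across the KO libraries. It rose 2.09-fold, and the log2FC was 1.07 (SE 0.12, edgeR adjusted p = 9.40e-05). Like the 6 genes of the energy buffer with KO above WT, *Adssl1*, *Prkaa2* and *Slc25a4* had their lowest KO value in KO replicate 1. That library also had the lowest sum of muscle fibre markers in KO (42677 CPM, against 51533 and 51328 CPM). It was also the KO library with almost no Y-linked reads, and *Slc6a8* too had its lowest KO value there. The part of these differences in the low values was not tested.

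Since muscle fibre genes as a whole took more of the KO counts, the 10 genes were also set relative to 8 of them, among them *Ttn*, *Neb*, *Des*, *Actn2* and *Ryr1*. These 8 took 0.539% to 0.584% of the counts in WT and 0.907% to 1.01% in KO. This scaling shifted the median log2 fold change of all genes to -0.85, so that 1.36% of all genes were called higher and 74.2% lower. *Ckmt2* was still called higher (0.88, edgeR adjusted p = 1.96e-08), and *Ckm* kept a positive log2 fold change under the threshold (0.42, edgeR adjusted p = 2.74e-04). *Ak1* (0.13) was no longer called, and *Ampd1* (-0.0074), *Gatm* (-0.15) and *Gamt* (-0.32) changed sign. *Slc6a8* (-0.93) and *Ckb* (-1.02) were called lower on this scale, with values near the shift of all genes. *Ampd3* (-1.64) and *Ckmt1* (-3.99) remained called lower. Thus *Gatm*, *Ampd1*, *Ak1* and *Ckm* were called higher relative to all genes and not relative to these fibre genes, and *Ckmt2* was called higher on both scales. The 8 genes had a median log2 fold change of 0.79. They left out the fibre markers *Acta1*, *Tnnt3*, *Mylpf* and *Myh8* (log2 fold changes 1.47, 1.38, 1.20 and 1.59) and *Myh3* (-0.04, not called). The scaled values therefore depend on the fibre genes chosen, and scaling to the markers left out was not tested.

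**Figure D4:**
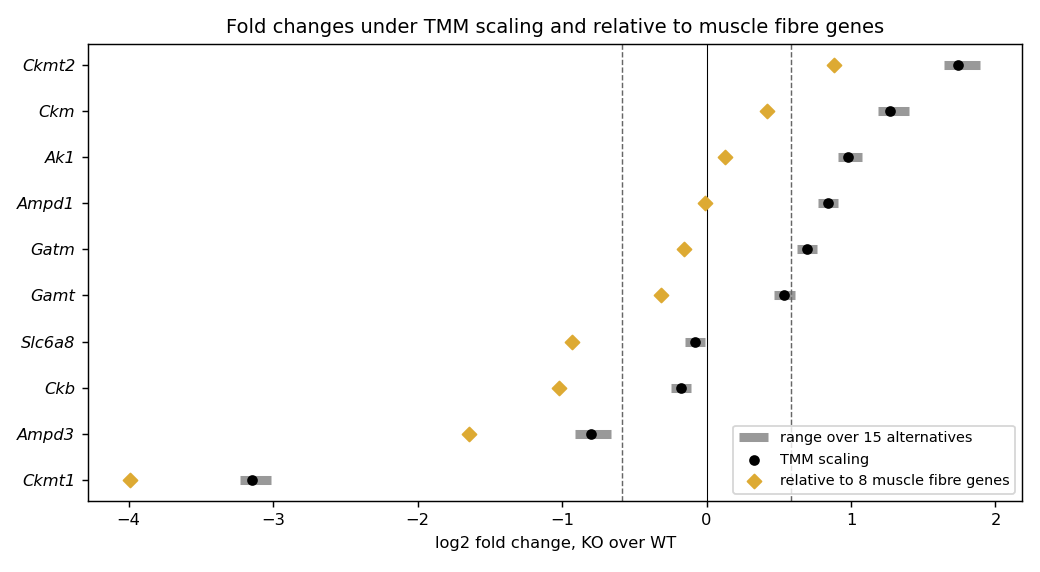
Log2 fold change of KO over WT (x axis) for the 10 genes with TMM scaling (black points), relative to 8 muscle fibre genes (yellow diamonds) and over 15 other alternatives (grey bars from lowest to highest value). Dashed lines mark a 1.5-fold change. Grey bars stay close to the black points, and the diamonds lie to their left, with *Ckmt2* the one diamond right of the upper dashed line.

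The genes outside the list whose log2 CPM followed *Ckm* most closely over the 6 libraries, among 12361 with a mean of at least 5 CPM, were *Tppp3*, *Ptp4a3* and *Pdhx*, with a Pearson r between 0.9997 and 0.9998. Their log2 fold changes were smaller than that of *Ckm*, at 0.66, 0.69 and 0.57. Those that followed *Ckb* were *Hgs*, *B4galt3* and *Snd1* (each r between 0.996 and 0.997), with log2 fold changes of -0.26, -0.13 and -0.15. With 6 libraries in 2 separate groups such values mostly record the difference between the groups, and they are given as a description.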

How the data were processed

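RNA was sequenced from 3 WT and 3 KO leg muscle samples. The authors trimmed reads with Trim Galore 0.6.6, aligned them to mm10 with HISAT2 2.2.1 and deposited raw featureCounts 2.0.1 counts per gene, not normalized. Annotation, strand setting and the unit of counting (reads or pairs) are not given in the sources used here. Symbols, positions and exon lengths came from GENCODE M21, matched by identifier without version, for 55227 of 56262 genes.

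Counts were analyzed in R 4.3.3 with edgeR 4.0.16 (filterByExpr, TMM factors, quasi-likelihood F-test on genotype alone), and p-values were adjusted by Benjamini-Hochberg over the 22071 genes passing the filter. A call needed a 1.5-fold change and an adjusted p of less than 0.05, as in one figure legend of the study, while its methods text names a p-value without saying that it was adjusted. Libraries of the same genotype differed beyond counting noise (mean chi-square per gene of 5.22 to 36.2). The CPM values use TMM-scaled library sizes, and RPKM divides them by the length of all exons. A count of 0 allows up to 3 counts, 0.0284 to 0.0363 CPM per library, for counting error only. On simulated data with 200 changed genes of 22071, edgeR called 193 of them and 1 other gene. The simulation gave every gene the same dispersion and changed genes by at least 2-fold. It therefore does not give the error rate on the real libraries or near the 1.5-fold threshold.

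The 10 genes and the further lists were chosen with earlier results of these data known. All 10 genes, every further pathway gene called, and *Ampd2*, *Adssl1* and *Slc25a4* were named. Marker lists were given by counts, sums and medians, apart from the fibre markers left out of the scaling. The values of some genes are not reported here. Motifs and sequence identity were computed with Python 3.11.15 and Biopython 1.88. Alternatives were RLE, upper-quartile, library-size and fibre-gene scaling, DESeq2 1.42.0, limma-voom 3.58.1, other filters and thresholds, a replicate block, a Y-linked covariate, each library left out, and other gene lengths. Coding length was added after the data were seen.

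The cartilage (1 higher and 3 lower of 7), bone (1 and 1 of 5), neuron and glia (1 and 1 of 7), smooth muscle (1 and 0 of 5), endothelium (0 and 0 of 5), macrophage (3 and 0 of 5), fibroblast (0 and 0 of 6), brown fat (3 and 1 of 5), satellite cell and myoblast (0 and 0 of 5) and sex-linked (0 and 0 of 5) lists were counted in the same way. In edgeR at an unadjusted p under 0.05, the endothelium list had 4 higher and 0 lower, the fibroblast list 4 and 0, the satellite cell list 1 and 3 and the sex-linked list 0 and 0. DESeq2 and limma-voom also called 0 genes of these 4 lists.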

Additional observations from a re-analysis of the deposited data

How the results depend on the processing

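The same 5 genes of the energy buffer were called higher and the same 2 lower under every alternative with the 1.5-fold threshold, except that *Gamt* joined with upper-quartile factors and without KO replicate 1, and except fibre-gene scaling. Of 160 alternative values of the 10 genes, 152 gave the same call. Relative to the 8 fibre genes, 1 of the 10 was called higher and 4 lower, of all genes 301 and 16387 (1.80% of calls higher, against 49.8%), and of the further pathway genes 0 and 21. There *Gamt* (-0.32), *Gatm* (-0.15) and *Ampd1* (-0.0074) turned negative, by the construction of the scale. By adjusted p alone, all genes gave 4838 higher and 5098 lower and the further pathway genes 15 and 7. Above 2-fold, 2 of the 10 were higher and 1 lower, 774 of all genes were higher and 1269 lower, and 2 further pathway genes were higher. With library size alone, 2 further pathway genes were called lower. Leaving out 1 library at a time gave 0 to 1 such gene, with 1 without WT replicate 3 or KO replicate 2.

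Same-numbered WT and KO libraries are not said to be paired, and their deviations from the group means correlated at -0.20, -0.13 and 0.05, with 1 of 6 libraries correlating best with its own number. A replicate block gave 1744 higher and 1777 lower genes, and 5 higher and 2 lower of the 10. The comparisons rest on 3 libraries per genotype of unknown pooling. Depth was ample for the 10 genes, the scarcest of which still had 340 counts in its lowest library. Shares of *Ckm* and ratios between genes moved with the length used, as given above.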
